A study of Drosophila melanogaster with 24 samples.

Results

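Thoraces of male Drosophila melanogaster in which muscle carried an RNAi transgene against Prosbeta5 are compared here with thoraces that carried a control transgene, across all genes measured. The members were chosen by their labels: 3 libraries of genotype Mhc>ProsB5RNAi (called ProsB5 RNAi below), 3 of Mhc>GFPRNAi and 3 of Mhc>whiteRNAi, which makes 9 of the 24 libraries of the series. All 9 came from flies aged 10 days, and in all of them, controls included, an RNAi transgene was expressed under Mhc, the promoter of the muscle myosin heavy chain gene. The control transgenes were directed at GFP, which flies lack, and at white, an eye pigment transporter gene. RNA was extracted from whole thoraces, which are mostly flight and leg muscle but also hold fat body, gut, nerve, blood cells and epidermis. The labels call the libraries biological replicates without saying how many animals each held, so p-values measure only the spread between these samples. Values are read counts per 1000000 reads in genes of a library, after scaling between libraries (CPM). Differences are log2 fold changes ± SE of ProsB5 RNAi over the mean of both control groups, from edgeR's quasi-likelihood test with Benjamini-Hochberg adjustment over all genes tested. A gene was called higher or lower at an adjusted p under 0.05 when it also had the same sign against GFP RNAi alone and against white RNAi alone.

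The 26S proteasome degrades proteins marked with ubiquitin. Its 20S core is a barrel of alpha and beta subunits whose catalytic sites lie inside, and its 19S regulatory particle recognises, unfolds and feeds in the substrate. Prosbeta5 is the beta subunit with chymotrypsin-like activity. In flies, as in mammals, cells with too little proteasome activity raise transcription of proteasome subunit genes through a cap'n'collar transcription factor, the product of cnc in flies, which also acts on detoxification genes.

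Counts of reads in genes came to 34.4 to 35.7 M in ProsB5 RNAi and 31.0 to 32.9 M in the controls (M, 1000000 reads), and 12498 to 13424 of 15682 gene symbols had reads. Sarcomere genes, the markers of muscle, summed to 35199 to 42330.0 CPM in ProsB5 RNAi, against 44778 to 61939 CPM in the controls. The libraries differed in RNA of other organs. Summed photoreceptor markers lay at 361 to 403 CPM in ProsB5 RNAi and at 412 to 473 CPM in 3 of the controls. In GFP RNAi replicates 2 and 3 and white RNAi replicate 1 they reached 884, 1351 and 1405 CPM. Summed male accessory gland markers were 430 CPM in ProsB5 RNAi replicate 1, 292 CPM in GFP RNAi replicate 1, and 43.4 and 211 CPM in white RNAi replicates 1 and 2, against 1.87 to 6.42 CPM in the rest. The counts of calls below were therefore also made without either set of libraries, a choice made after the data were seen. The fit drew its spread from 15 thorax libraries, among them 3 of Ter94 RNAi, of which replicates 2 and 3 differed little more than by counting noise (mean chi-square per gene 1.76, against 11.9 to 80.6 in all other replicate pairs).

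Prosbeta5 itself stood at 65.7, 72.6 and 69.7 CPM in ProsB5 RNAi, against 155.5, 142 and 137 CPM in GFP RNAi and 152, 141 and 134 CPM in white RNAi. All 3 knockdown libraries lay below all 6 controls, near 0.484 of the control level (log2 -1.05 ± 0.06, adjusted p = 3.81e-07). In bulk RNA, fewer cells of a type and less RNA per cell cannot be told apart, and the remaining Prosbeta5 reads include those of cells in which Mhc is not active. Mhc, whose promoter drove the transgenes, stood at 3701 to 4425 CPM in ProsB5 RNAi, against 4245 to 5957 CPM in the controls and was not called (log2 -0.18 ± 0.09, adjusted p = 0.172). Prosbeta5 overlaps Lsm10 in the reference annotation, and Lsm10 was not called either (2.69 to 3.7 CPM in ProsB5 RNAi, against 3.04 to 4.85 CPM in the controls; log2 -0.25 ± 0.13, adjusted p = 0.16).

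Of 11262 genes tested, 1906 were called higher in ProsB5 RNAi (16.9%) and 1513 lower (13.4%), 3419 in all (30.4%). Most of these differences were small, with a median absolute log2 fold change of 0.35 among called genes and a median of 0.015 over all genes tested. A change of at least 2-fold, an absolute log2 fold change of 1 or more, was reached by 639 called genes (5.67%), 424 of them higher (3.76%) and 215 lower (1.91%). Groups did not overlap in 2777 genes (24.7%). In 1518 genes all 3 ProsB5 RNAi libraries lay above all 6 controls (13.5%), and in 1259 below them (11.2%). The controls differed from each other in 1451 genes (12.9%), and 618 of the genes called against their mean (18.1%) were among those. Against GFP RNAi alone 3501 genes passed an adjusted p of 0.05 (31.1%), 1909 higher (17%) and 1592 lower (14.1%). Against white RNAi alone 2670 did (23.7%), 1496 higher (13.3%) and 1174 lower (10.4%). Passing against both separately, 1735 genes in all (15.4%), left 1008 higher (8.95%) and 727 lower (6.46%). Without the 3 control libraries highest in the opsin gene ninaE the count of calls was 2226, and without the 4 libraries highest in the accessory gland gene Acp36DE it was 1682. Below, these are called the ninaE libraries and the Acp36DE libraries, and a list's count is also given where leaving them out, or requiring a call against each control separately, moved it by more than 1.5 times. The count of each list stands beside the 16.9% of all genes tested that were higher and the 13.4% that were lower.

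**Figure D1:**
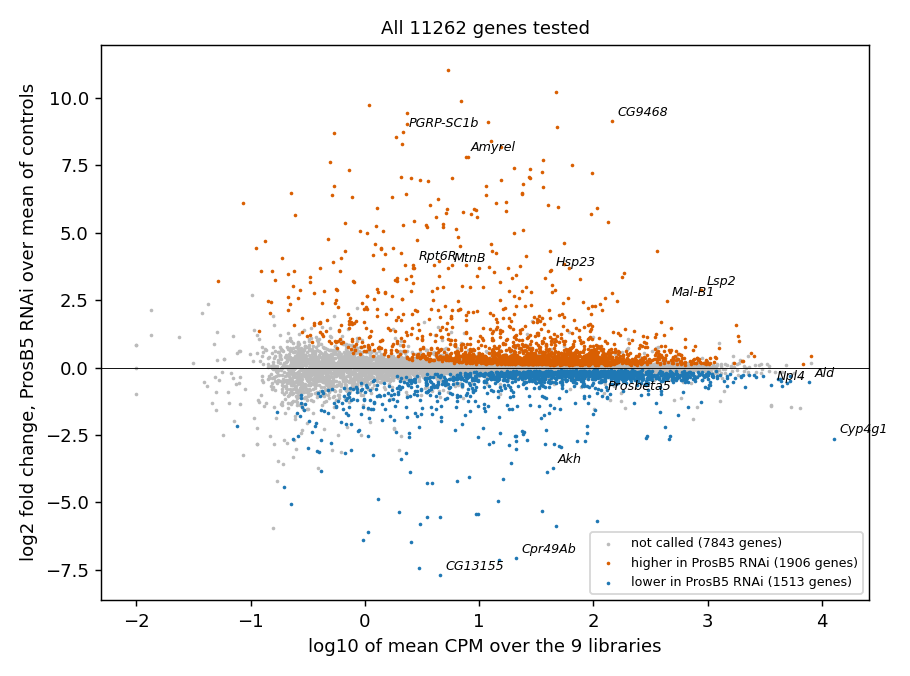
Each point is 1 gene. The horizontal axis gives the log10 of its mean CPM over the 9 libraries and the vertical axis its log2 fold change in ProsB5 RNAi over the controls, with called genes coloured by direction. Called genes run from -7.69 (CG13155) to 11.04 (CG17475) on the vertical axis, and most lie close to 0.

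The other proteasome genes were higher. All 13 other members of the 20S core that were tested were called higher in ProsB5 RNAi, with a median log2 fold change of 0.45, beside 0.015 over all genes, and 17 of 18 members of the 19S particle, with a median of 0.53. Pros29, an alpha subunit of the core, stood at 104, 137 and 108 CPM in ProsB5 RNAi, against 85.2, 85.1 and 69.4 CPM in GFP RNAi and 82.6, 81.3 and 71.4 CPM in white RNAi (log2 0.55 ± 0.10, adjusted p = 0.00098). Prosbeta1, the caspase-like catalytic subunit, stood at 106, 145 and 109 CPM in ProsB5 RNAi, against 84, 87.9 and 73.6 CPM in GFP RNAi and 82.8, 81.1 and 77.3 CPM in white RNAi (log2 0.56 ± 0.10, adjusted p = 0.00147). In both genes ProsB5 RNAi replicate 2 was the highest library and replicates 1 and 3 lay closer to the controls, without reaching them.

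Among the 19S genes, Rpn3 encodes a scaffold subunit of the lid and stood at 123, 154 and 129.9 CPM in ProsB5 RNAi, against 86.5, 84.6 and 70.9 CPM in GFP RNAi and 88.8, 92.1 and 86.7 CPM in white RNAi (log2 0.68 ± 0.09, adjusted p = 0.000116). Tbp-1, one of the ATPases of the base, stood at 118, 149 and 112 CPM in ProsB5 RNAi, against 84.8, 85.2 and 74.9 CPM in GFP RNAi and 79.7, 83 and 73.3 CPM in white RNAi (log2 0.66 ± 0.09, adjusted p = 0.000124). Pros54, the ubiquitin receptor known elsewhere as Rpn10, stood at 116 to 163 CPM in ProsB5 RNAi, against 76.7 to 89.4 CPM in the controls (log2 0.65 ± 0.09, adjusted p = 0.000206). Rpn1 and Rpn2, the large subunits of the base, and Rpn11, the deubiquitinase of the lid, were higher too (log2 0.61 ± 0.09, log2 0.51 ± 0.08 and log2 0.60 ± 0.09). The groups overlapped in none of these genes. Rpn6 was the 19S member not called, at 174 to 225 CPM in ProsB5 RNAi, against 152 to 174 CPM in the controls (log2 0.25 ± 0.10, adjusted p = 0.069). ProsB5 RNAi replicate 2 was the highest library of its group in all 13 of the 20S genes and all 18 of the 19S genes. Without it 7 of the 13 were called among the 20S genes, and without the ninaE libraries 5 were. The 19S count moved by less than 1.5 times whichever library was left out.

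**Figure D2:**
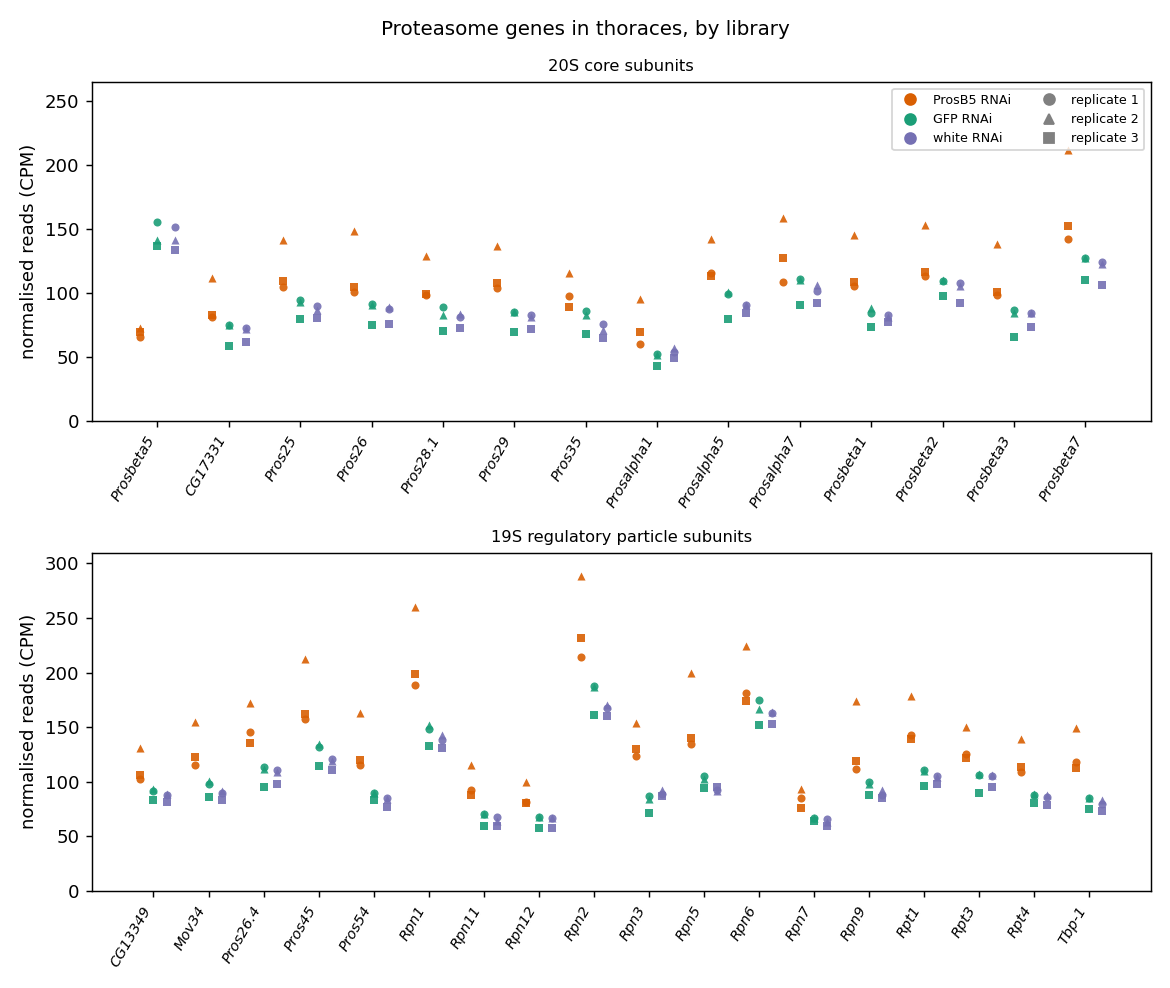
Normalised reads (CPM, linear axis from 0) of the 20S subunit genes in the upper panel, with Prosbeta5 first, and of the 19S subunit genes in the lower panel. Colours mark the group, with ProsB5 RNAi leftmost at each gene, and symbols mark the replicate. Prosbeta5 lies at 65.7 to 72.6 CPM in ProsB5 RNAi, against 134 to 155.5 CPM in the controls, while the other genes, except Rpn6 and Prosalpha7, lie above their controls without overlap.

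Proteins that work with the proteasome were part of the rise. CG5384 encodes Usp14, a deubiquitinase bound to the 19S base, and stood at 91.4, 105 and 85 CPM in ProsB5 RNAi, against 63.2, 65.4 and 56.3 CPM in GFP RNAi and 61.9, 64.8 and 59.3 CPM in white RNAi (log2 0.60 ± 0.07, adjusted p = 4.04e-05), with no overlap between the groups. Of 6 such partners tested 4 were higher and 0 lower, among them Uch-L3 (log2 0.31 ± 0.06, adjusted p = 0.0028). The genome also holds germline paralogues of proteasome subunits, of which 8 of 14 had too few reads to be tested. Of the 6 tested, Rpt6R and Rpt3R, paralogues of 19S ATPases, were higher and none was lower. The 33.3% called lay near the 30.4% of all genes tested. The other 4 were not called, and the median log2 fold change of the 6 was -0.465. Rpt6R stood at 4.79, 11.1 and 4.7 CPM in ProsB5 RNAi, against 0.696, 0.199 and 0.172 CPM in GFP RNAi and 1.06, 0.432 and 0.527 CPM in white RNAi (log2 3.79 ± 0.41, adjusted p = 3.29e-05). Rpt3R stood at 3.99, 21.4 and 6.21 CPM in ProsB5 RNAi, against 1.11, 0.399 and 0.448 CPM in GFP RNAi and 0.993, 0.797 and 0.725 CPM in white RNAi (log2 3.82 ± 0.46, adjusted p = 6.79e-05). Both had low levels, both were highest in ProsB5 RNAi replicate 2, and the groups overlapped in neither. Rpt3R overlaps Alg12 in the reference annotation.

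Upstream of the proteasome, TER94 encodes the p97 ATPase that extracts ubiquitylated proteins, and stood at 467, 516 and 439 CPM in ProsB5 RNAi, against 393, 385 and 344 CPM in GFP RNAi and 353, 353 and 319.7 CPM in white RNAi (log2 0.41 ± 0.06, adjusted p = 0.000181). Its cofactor gene Npl4, one of the 8 largest falls in CPM, stood at 2209, 2736 and 2825 CPM in ProsB5 RNAi, against 4335, 4281 and 4456 CPM in GFP RNAi and 3823, 3791 and 3830.1 CPM in white RNAi (log2 -0.65 ± 0.07, adjusted p = 2.37e-05). The groups of neither gene overlapped. Of 17 p97 and ubiquitin factors 7 were called higher and 1 lower, a count that fell to 3 higher and 1 lower without GFP RNAi replicate 3 or without white RNAi replicate 3, and to 3 higher and 2 lower without ProsB5 RNAi replicate 2. Such calls were 3 higher and 1 lower against each control separately, 3 and 1 without the ninaE libraries and 4 and 1 without the Acp36DE libraries. Plap and the ubiquitin ligase gene Ube3a were higher (log2 0.39 ± 0.07 and log2 0.36 ± 0.08), Ube3a by 0.20 without ProsB5 RNAi replicate 2. Oda, the antizyme that takes ornithine decarboxylase to the proteasome, stood at 3301 to 3523 CPM in ProsB5 RNAi, against 4217 to 5599 CPM in the controls (log2 -0.49 ± 0.04, adjusted p = 1.35e-05).

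Genes of the cnc axis moved both ways, with 5 higher and 4 lower of 19, and 3 and 2 without ProsB5 RNAi replicate 2. Axis calls were 3 higher and 1 lower without the Acp36DE libraries. GstD1, a gene often used as a reporter of cnc activity in flies, stood at 972, 1313 and 929 CPM in ProsB5 RNAi, against 630.0, 672 and 536 CPM in GFP RNAi and 642, 646 and 604 CPM in white RNAi (log2 0.79 ± 0.11, adjusted p = 0.000197). Every knockdown library of GstD1 lay above every control. maf-S, which encodes the DNA binding partner of the cnc product, was lower (35.2 to 36.4 CPM in ProsB5 RNAi, against 43.3 to 53.7 CPM in the controls; log2 -0.37 ± 0.07, adjusted p = 0.00231), and so was the catalase gene Cat (log2 -0.41 ± 0.09, adjusted p = 0.00347). The cnc transcript itself stood at 398 to 416 CPM in ProsB5 RNAi, against 367 to 414 CPM in the controls (log2 0.05 ± 0.04, adjusted p = 0.327).

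Glutathione S-transferases, which couple glutathione to reactive compounds, were 15 higher and 1 lower of 20, with a median log2 fold change of 0.63. Transferase calls were 10 higher and 0 lower against each control separately and 8 and 1 without the Acp36DE libraries. GstD2 stood at 8.7, 15.4 and 6.07 CPM in ProsB5 RNAi, against 0.98, 1.26 and 0.621 CPM in GFP RNAi and 1.6, 2.36 and 1.35 CPM in white RNAi (log2 2.95 ± 0.28, adjusted p = 1.49e-05). GstD5 stood at 21.9, 18.7 and 11.6 CPM in ProsB5 RNAi, against 0.759, 0.864 and 0.552 CPM in GFP RNAi and 5.64, 8.24 and 6.2 CPM in white RNAi (log2 2.98 ± 0.23, adjusted p = 4.03e-06). In both the ProsB5 RNAi libraries lay above all controls, and in GstD5 the control groups also lay apart. GstD3 was higher as well (log2 1.01 ± 0.21, adjusted p = 0.00267), by 0.62 without ProsB5 RNAi replicate 2. GstS1, the form abundant in flight muscle, was lower, at 244 to 261 CPM in ProsB5 RNAi, against 384 to 419 CPM in GFP RNAi and 259.9 to 265 CPM in white RNAi (log2 -0.36 ± 0.06, adjusted p = 0.000609), so that it overlapped white RNAi. The GstD genes neighbour each other in the genome, as do the GstE genes.

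Other detoxification families followed in part. UDP-glycosyltransferases were 11 higher and 0 lower of 16 (median 0.51), among them Ugt86Dg at 1.75 to 2.51 CPM in ProsB5 RNAi, against 0.297 to 0.538 CPM in the controls (log2 2.40 ± 0.24, adjusted p = 1.94e-05) and Ugt86Dd at 61.3 to 82 CPM in ProsB5 RNAi, against 27.5 to 52.3 CPM in the controls (log2 0.99 ± 0.15, adjusted p = 0.000363). Cytochrome P450 genes were 32 higher and 14 lower of 82 (median 0.16). They were picked by gene symbol, so the list also holds Cyp1, a cyclophilin gene and not a P450. P450 calls were 15 higher and 8 lower against each control separately and 17 and 11 without the Acp36DE libraries. Cyp4s3 stood at 47.3, 24.3 and 29.5 CPM in ProsB5 RNAi, against 8.13, 6.62 and 5.69 CPM in GFP RNAi and 6.18, 5.18 and 4.42 CPM in white RNAi (log2 2.49 ± 0.28, adjusted p = 4.6e-05). Cyp6g2 was among the 12 largest falls, at 2.96, 3.46 and 4.52 CPM in ProsB5 RNAi, against 26.2, 28.9 and 27.2 CPM in GFP RNAi and 34, 35.1 and 28.9 CPM in white RNAi (log2 -3.04 ± 0.23, adjusted p = 3.93e-06). Cyp4e1 was lower as well (log2 -1.10 ± 0.06, adjusted p = 2.19e-07), and Cyp9b2 higher (log2 0.57 ± 0.06, adjusted p = 2.06e-05).

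Metallothioneins, small proteins that bind metal ions, were higher in 4 of 5. MtnB stood at 13.8, 15.2 and 11.3 CPM in ProsB5 RNAi, against 4.77, 1.16 and 0.655 CPM in GFP RNAi and 0.577, 0.532 and 0.297 CPM in white RNAi (log2 3.71 ± 0.55, adjusted p = 0.000319), MtnD reached 6.85 to 11.2 CPM in ProsB5 RNAi, against 0.577 to 2.81 CPM in the controls (log2 2.84 ± 0.31, adjusted p = 3.4e-05), and MtnC was higher too (log2 0.99 ± 0.21, adjusted p = 0.00404). MtnE was called too, but its lowest ProsB5 RNAi library, at 3.7 CPM, lay below GFP RNAi replicate 1, at 4.05 CPM. MtnA was not called (802 to 1100.2 CPM in ProsB5 RNAi, against 656 to 1119 CPM in the controls; log2 0.17 ± 0.17, adjusted p = 0.507).

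Heat shock proteins were uneven between the knockdown libraries. Of 9 small heat shock proteins, chaperones that hold unfolded proteins, 5 were higher and 2 lower. Hsp23 stood at 62.8, 199.9 and 59.2 CPM in ProsB5 RNAi, against 7.72, 16.6 and 4.45 CPM in GFP RNAi and 6.92, 7.61 and 11 CPM in white RNAi (log2 3.57 ± 0.43, adjusted p = 6.92e-05). Hsp27 stood at 27.7, 77.2 and 81.5 CPM in ProsB5 RNAi, against 13.3, 4.12 and 3.69 CPM in GFP RNAi and 5.45, 6.25 and 14.2 CPM in white RNAi (log2 2.99 ± 0.49, adjusted p = 0.000609). Hsp26 stood at 97.7 to 259 CPM in ProsB5 RNAi, against 33.1 to 68 CPM in the controls (log2 1.98 ± 0.32, adjusted p = 0.000598), and CG4461 was lower (log2 -0.45 ± 0.08, adjusted p = 0.000888). None of these 4 overlapped between the groups, and replicate 2 was far above the other ProsB5 RNAi libraries in Hsp23, while replicate 1 was the low one in Hsp26 and Hsp27.

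All 7 inducible Hsp70 and Hsp68 genes were called higher, but the call rested on few libraries. Hsp70Bb stood at 39.8, 206 and 158 CPM in ProsB5 RNAi, against 38.5, 15.6 and 19.1 CPM in GFP RNAi and 8.33, 13.9 and 38.9 CPM in white RNAi (log2 2.60 ± 0.58, adjusted p = 0.00457). ProsB5 RNAi replicate 1 was just above the highest controls, replicates 2 and 3 several times higher. Without replicate 2 there were 4 calls among the 7, and without the ninaE libraries 0, where Hsp70Bb was at an adjusted p of 0.0787. The Hsp70 copies are near identical, so reads cannot be assigned to one of them with certainty.

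Of 20 cytosolic and mitochondrial chaperones and cofactors 7 were higher and 4 lower. Their calls were 5 higher and 0 lower against each control separately and 4 and 0 without the Acp36DE libraries. Cct5 and Cctgamma, subunits of the chaperonin that folds actin and tubulin, were higher (log2 0.45 ± 0.09, adjusted p = 0.00162 and log2 0.35 ± 0.06, adjusted p = 0.00125), Hsc70-1 lower (log2 -0.26 ± 0.05, adjusted p = 0.00201), and Hsp83, the fly Hsp90, was not called (747 to 1255 CPM in ProsB5 RNAi, against 561 to 1362 CPM in the controls; log2 -0.10 ± 0.18, adjusted p = 0.756). In the endoplasmic reticulum 9 of 22 genes were higher and 0 lower. Pdi, a protein disulphide isomerase gene, stood at 792, 669 and 635 CPM in ProsB5 RNAi, against 562, 499 and 438 CPM in GFP RNAi and 481, 482 and 487 CPM in white RNAi (log2 0.51 ± 0.08, adjusted p = 0.000321), above all controls in each library. ERp60 and CaBP1, both of the same protein family, were higher (log2 0.47 ± 0.07 and log2 0.59 ± 0.10).

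Genes of protein synthesis gave no single direction. Aminoacyl-tRNA synthetases, which charge tRNAs, were 9 higher and 2 lower of 21, among them Aats-asp at 119 to 144 CPM in ProsB5 RNAi, against 87.9 to 98.4 CPM in the controls (log2 0.51 ± 0.07, adjusted p = 0.000125), with no overlap. Synthetase calls were 6 higher and 0 lower without the Acp36DE libraries. Translation factors were 4 and 2 of 33, ribosome biogenesis genes 1 and 0 of 14, and mitochondrial ribosomal proteins 5 and 13 of 73. In this order 18.2%, 7.14% and 24.7% were called, below the 30.4% of all genes tested. Translation factor calls were 1 higher and 2 lower without the Acp36DE libraries. Mitochondrial ribosome calls were 1 higher and 4 lower against each control separately, 3 and 6 without the ninaE libraries and 1 and 1 without the Acp36DE libraries. Without ProsB5 RNAi replicate 1 the last count was 2 higher and 5 lower, and without replicate 2 it was 2 and 8. The 1 ribosome biogenesis call, pit, was lost without white RNAi replicate 2, ProsB5 RNAi replicate 1 or ProsB5 RNAi replicate 2, and 2 members were called lower without GFP RNAi replicate 3. Biogenesis calls were 0 higher and 0 lower against each control separately, 0 and 0 without the ninaE libraries and 0 and 0 without the Acp36DE libraries. Cytosolic ribosomal proteins were 16 higher and 2 lower of 90, so that 20% were called, also fewer than among all genes. That count fell to 1 higher and 3 lower without ProsB5 RNAi replicate 1, to 4 and 2 without replicate 3 and to 9 and 2 without replicate 2. Leaving out GFP RNAi replicate 3, white RNAi replicate 2 or white RNAi replicate 3 gave 5, 6 and 3 higher, each with 2 lower. Cytosolic ribosome calls were 0 higher and 1 lower against each control separately, 8 and 2 with the Ter94 RNAi libraries averaged, 6 and 2 without the ninaE libraries and 1 and 1 without the Acp36DE libraries.

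Stress genes around ATF4 and C/EBP, among them the factors themselves, were 6 higher and 4 lower of 17, and 3 and 0 without ProsB5 RNAi replicate 1. Calls on this list were 0 higher and 0 lower against each control separately, 2 and 1 without the ninaE libraries and 1 and 0 without the Acp36DE libraries. CG3011, the serine hydroxymethyltransferase gene Shmt, stood at 485, 287 and 297 CPM in ProsB5 RNAi, against 153, 149 and 129.6 CPM in GFP RNAi and 274, 282 and 254.9 CPM in white RNAi (log2 0.85 ± 0.13, adjusted p = 0.000485), its white RNAi libraries near the lower knockdown libraries. Without ProsB5 RNAi replicate 1 its log2 fold change was 0.57. The transcript of ATF4 itself, crc, was lower by little (log2 -0.12 ± 0.03, adjusted p = 0.0164), a call lost without ProsB5 RNAi replicate 1.

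Of 19 amylase, maltase, trehalase and sugar transporter genes 11 were higher and 2 lower, with a median log2 fold change of 0.97. Mal-B1, a maltase gene, stood at 997, 876 and 985 CPM in ProsB5 RNAi, against 147, 116 and 103 CPM in GFP RNAi and 232, 278 and 219 CPM in white RNAi (log2 2.47 ± 0.10, adjusted p = 2.46e-08). Its tandem neighbour Mal-B2 stood at 543, 381 and 368 CPM in ProsB5 RNAi, against 181, 162 and 151 CPM in GFP RNAi and 223, 237 and 205 CPM in white RNAi (log2 1.17 ± 0.10, adjusted p = 9.15e-06). The knockdown libraries of both lay above every control, and white RNAi above GFP RNAi.

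Amyrel, a gene of the amylase family, stood at 37, 15.8 and 15.4 CPM in ProsB5 RNAi, against 0.19, 0.0332 and 0 CPM in GFP RNAi and 0.0961, 0.166 and 0.0989 CPM in white RNAi. It had 2344 reads in the 3 knockdown libraries, against 18 in the 6 controls, a ratio of 228 after scaling for library size (95% exact interval from counting error 144 to 386, adjusted p = 2.32e-06). Amyrel overlaps gprs on the opposite strand by a few bases in the reference annotation, and gprs was not called (22.4 to 23.2 CPM in ProsB5 RNAi, against 21.1 to 26.41 CPM in the controls). The maltases of the Mal-A cluster rose by different amounts. Mal-A3 stood at 161, 83.3 and 104 CPM in ProsB5 RNAi, against 9.64, 0.532 and 0.414 CPM in GFP RNAi and 0.577, 0.864 and 1.12 CPM in white RNAi (log2 6.05 ± 0.67, adjusted p = 4.04e-05). In Mal-A3 a single control, GFP RNAi replicate 1, stood above the rest. Mal-A4 stood at 236, 92 and 127 CPM in ProsB5 RNAi, against 7.72, 1.7 and 0.448 CPM in GFP RNAi and 11.6, 12.7 and 10.3 CPM in white RNAi (log2 4.61 ± 0.50, adjusted p = 3.29e-05). Mal-A7 stood at 1250.1, 813 and 849.9 CPM in ProsB5 RNAi, against 58.2, 20.3 and 3.69 CPM in GFP RNAi and 69.8, 78.2 and 114 CPM in white RNAi (log2 4.31 ± 0.51, adjusted p = 5.76e-05). In each of the 3, replicate 1 was the highest ProsB5 RNAi library, GFP RNAi replicates 2 and 3 were lower than GFP RNAi replicate 1, and no control came near the knockdown. Mal-A1, one of the 8 largest rises in CPM, stood at 2608 to 4150.0 CPM in ProsB5 RNAi, against 609.7 to 1259 CPM in the controls (log2 1.58 ± 0.22, adjusted p = 2e-04), and Mal-A2 and Mal-A8 were higher as well (log2 2.22 ± 0.23 and log2 1.70 ± 0.26). Mal-A5, from the middle of the same cluster, was lower, at 231, 261 and 278 CPM in ProsB5 RNAi, against 553, 541 and 589 CPM in GFP RNAi and 318, 333 and 323 CPM in white RNAi (log2 -0.74 ± 0.05, adjusted p = 2.62e-06). tobi, a glucosidase gene that responds to dietary sugar and protein, stood at 3707, 2303 and 2299 CPM in ProsB5 RNAi, against 1451, 1298 and 657 CPM in GFP RNAi and 1713, 1887 and 1668 CPM in white RNAi (log2 0.97 ± 0.30, adjusted p = 0.026), a call lost without ProsB5 RNAi replicate 1 or white RNAi replicate 3. It overlaps rha in the reference annotation. Replicate 1 was the highest ProsB5 RNAi library in 17 of the 19 genes.

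**Figure D3:**
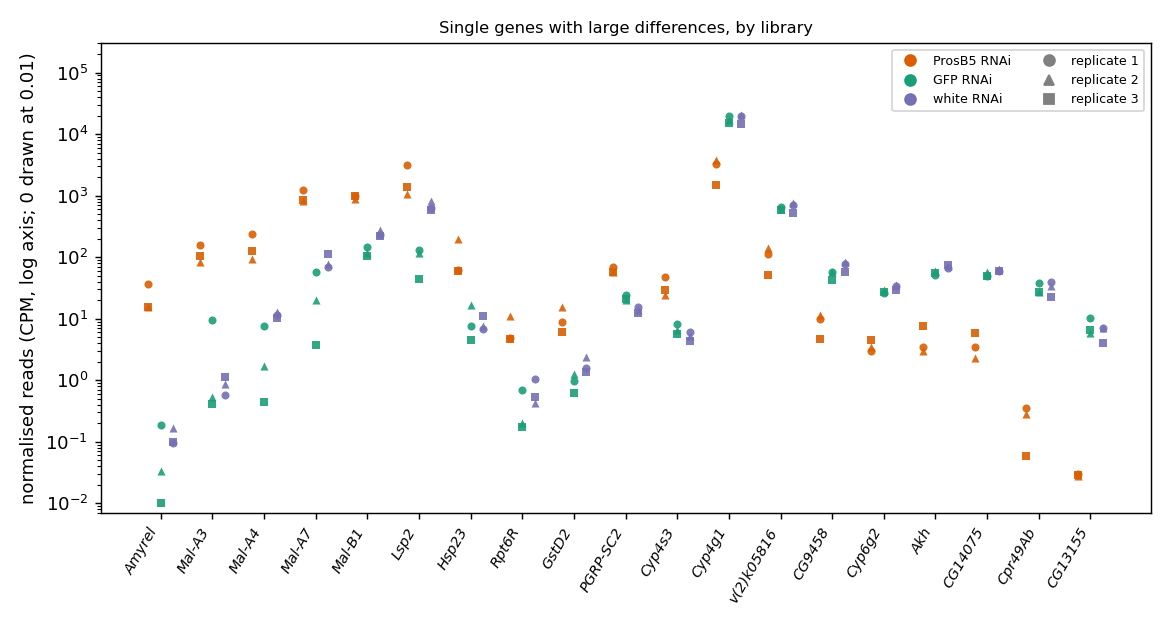
Normalised reads (CPM, log axis, with 0 drawn at 0.01) of 19 genes in each library. At each gene ProsB5 RNAi is leftmost, and symbols mark replicates. From Amyrel to Cyp4s3 the ProsB5 RNAi points lie above the controls, as for Mal-B1 at 876 to 997 CPM against 103 to 278 CPM, and from Cyp4g1 to CG13155 below them.

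The largest fall in CPM was in genes of very long chain lipids and hydrocarbons, which oenocytes make for the waterproof layer of the cuticle. Of 13 such genes tested 12 were lower and 0 higher, with a median log2 fold change of -2.63. Cyp4g1, the P450 that makes hydrocarbons in the last step, stood at 3305, 3835 and 1473 CPM in ProsB5 RNAi, against 19458, 16782 and 15283 CPM in GFP RNAi and 19741, 20814 and 14719.9 CPM in white RNAi (log2 -2.63 ± 0.29, adjusted p = 3.9e-05). The highest knockdown library was far below the lowest control. Cpr, the reductase that supplies the P450 enzymes with electrons, stood at 464, 487 and 387 CPM in ProsB5 RNAi, against 1102, 1019 and 980.2 CPM in GFP RNAi and 1222, 1259.8 and 944 CPM in white RNAi (log2 -1.28 ± 0.10, adjusted p = 2.94e-06). Of the fatty acid synthase genes, v(2)k05816, now FASN2, stood at 51.9 to 139.7 CPM in ProsB5 RNAi, against 523 to 754 CPM in the controls (log2 -2.65 ± 0.28, adjusted p = 2.68e-05). CG17374, now FASN3, stood at 47.2 to 165 CPM in ProsB5 RNAi, against 373 to 848 CPM in the controls (log2 -2.20 ± 0.37, adjusted p = 0.000683). The elongase genes CG16904, CG9458 and CG9459, neighbours on the chromosome, were lower by 2.60, 2.84 and 2.67 on the log2 scale. So were CG1444, the ketoacyl reductase gene spidey (log2 -1.31 ± 0.11, adjusted p = 4.93e-06), and CG18031, an acyl-CoA reductase gene now FarO (log2 -2.35 ± 0.30, adjusted p = 0.000117). The member not called was the desaturase gene desat1 (log2 -0.14 ± 0.09, adjusted p = 0.246). The 13 genes summed to 7534, 8524 and 5899 CPM in ProsB5 RNAi, against 26304, 23581 and 21057 CPM in GFP RNAi and 28017, 29413 and 22294 CPM in white RNAi. Every one of the 12 was called against each control separately and in every fit that left out 1 library, although eloF missed the threshold without the 3 control libraries highest in ninaE (adjusted p = 0.0546). Whether these thoraces held fewer oenocytes was not tested.

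General lipid synthesis was lower in 5 of 13 genes and higher in 0. The members called were v(2)k05816, CG17374 and eloF, which the oenocyte list also holds, with the elongase gene Baldspot (log2 -0.50 ± 0.05, adjusted p = 2.49e-05) and the fatty acid transporter gene Fatp (log2 -0.35 ± 0.05, adjusted p = 0.000424). Mitochondrial oxidation of fatty acids went the other way, with 8 higher and 0 lower of 11 (median 0.23). Oxidation calls were 4 higher and 0 lower against each control separately. CG6543, the enoyl-CoA hydratase gene Echs1, stood at 231, 184 and 187 CPM in ProsB5 RNAi, against 138, 128 and 125 CPM in GFP RNAi and 136, 135 and 125 CPM in white RNAi (log2 0.61 ± 0.07, adjusted p = 5.41e-05), with no overlap. The thiolase gene yip2 and Mtpalpha, the trifunctional protein, were higher as well (log2 0.38 ± 0.07 and log2 0.24 ± 0.04).

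Hormone and fat mobilisation genes were 4 higher and 4 lower of 15. Mobilisation calls were 2 higher and 3 lower against each control separately. Akh, the adipokinetic hormone that releases fat and sugar stores and is made in the corpora cardiaca at the front of the gut, stood at 3.49, 3.01 and 7.73 CPM in ProsB5 RNAi, against 51.6, 60.7 and 55.2 CPM in GFP RNAi and 67.9, 72.4 and 74.2 CPM in white RNAi (log2 -3.74 ± 0.35, adjusted p = 1.45e-05). Each knockdown library held far less Akh than any control. The lipase gene mag, which is expressed in the gut, stood at 49.8, 80.9 and 107 CPM in ProsB5 RNAi, against 13.1, 0.166 and 0.172 CPM in GFP RNAi and 0.0641, 0.0332 and 0.132 CPM in white RNAi (adjusted p = 0.000213). The lipase gene Lip3 stood at 1.81 to 6.75 CPM in ProsB5 RNAi, against 0.0332 to 0.192 CPM in the controls, with 363 reads against 18, a ratio of 35.4 (22.1 to 60.4; adjusted p = 5.53e-05). Of the insulin pathway genes, chico was lower (log2 -0.32 ± 0.06, adjusted p = 0.00103), and foxo stood at 169 to 187 CPM in ProsB5 RNAi, against 300.5 to 333 CPM in GFP RNAi and 169.7 to 207 CPM in white RNAi, which it overlapped (log2 -0.47 ± 0.07, adjusted p = 0.000348). CG14075, which is not on any list and was among the 12 largest falls, stood at 3.49, 2.32 and 5.83 CPM in ProsB5 RNAi, against 49.5, 57.1 and 49 CPM in GFP RNAi and 60.2, 64.6 and 60.5 CPM in white RNAi (log2 -3.87 ± 0.37, adjusted p = 1.55e-05). The groups of CG14075 did not overlap.

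Of 32 sarcomere genes 17 were lower and 1 higher, with a median log2 fold change of -0.25. Sarcomere calls were 0 higher and 8 lower against each control separately and 2 and 8 without the Acp36DE libraries. TpnC4, the troponin C of the flight muscles, stood at 333.5, 387 and 386 CPM in ProsB5 RNAi, against 874, 870.1 and 1100.3 CPM in GFP RNAi and 468, 505 and 519 CPM in white RNAi (log2 -0.90 ± 0.09, adjusted p = 2.74e-05). The thick filament protein gene fln, flightin, stood at 149, 187 and 203 CPM in ProsB5 RNAi, against 381, 374 and 539 CPM in GFP RNAi and 296, 286 and 289 CPM in white RNAi (log2 -0.98 ± 0.13, adjusted p = 0.000129). Mlc1, a myosin light chain, stood at 599, 671 and 708 CPM in ProsB5 RNAi, against 1043, 1060.4 and 1449 CPM in GFP RNAi and 1029.6, 1006 and 1021 CPM in white RNAi (log2 -0.74 ± 0.09, adjusted p = 0.000102). The groups overlapped in none of these, and GFP RNAi replicate 3 was the highest library in each. Prm, the paramyosin gene, and the Z-disc genes Zasp52 and Zasp66 were lower too (log2 -0.50 ± 0.10, log2 -0.35 ± 0.08 and log2 -0.26 ± 0.06). Mlc-c, the light chain of cytoplasmic myosin, was the list's 1 gene that was higher (log2 0.27 ± 0.07, adjusted p = 0.00823), a call lost without ProsB5 RNAi replicate 1. Mf, myofilin, one of the 8 largest falls in CPM, stood at 3022 to 3427 CPM in ProsB5 RNAi, against 3798 to 8945 CPM in the controls (log2 -0.67 ± 0.21, adjusted p = 0.0283), a call lost without ProsB5 RNAi replicate 1, ProsB5 RNAi replicate 2 or white RNAi replicate 1. Act88F, the flight muscle actin, overlapped the controls, at 197 to 400.5 CPM in ProsB5 RNAi, against 191 to 319.7 CPM in the controls (log2 0.41 ± 0.17, adjusted p = 0.093). Muscle attachment and matrix genes were 7 higher and 3 lower of 19, and 4 and 2 without ProsB5 RNAi replicate 2. Attachment calls were 2 higher and 1 lower against each control separately and 2 and 1 without the Acp36DE libraries. The integrin gene scb stood at 79.1 to 98.4 CPM in ProsB5 RNAi, against 36.9 to 65.7 CPM in the controls (log2 0.71 ± 0.11, adjusted p = 0.000396).

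Nuclear genes of oxidative phosphorylation were lower in 28 of 37 and higher in 0, with a median log2 fold change of -0.31. CG3560, a subunit of complex III, stood at 574, 565 and 684 CPM in ProsB5 RNAi, against 805, 846 and 1023 CPM in GFP RNAi and 886, 826 and 805 CPM in white RNAi (log2 -0.51 ± 0.09, adjusted p = 0.00091), with no overlap. The cytochrome c gene Cyt-c-p stood at 691 to 806 CPM in ProsB5 RNAi, against 972 to 1596 CPM in the controls (log2 -0.63 ± 0.14, adjusted p = 0.00458). ATPsyn-beta, the catalytic beta subunit of the ATP synthase and one of the 8 largest falls in CPM, stood at 3295 to 3545 CPM in ProsB5 RNAi, against 3822 to 7804 CPM in the controls (log2 -0.44 ± 0.15, adjusted p = 0.0488), a call lost without ProsB5 RNAi replicate 1, ProsB5 RNAi replicate 2, ProsB5 RNAi replicate 3, white RNAi replicate 1, white RNAi replicate 2 or white RNAi replicate 3. In 36 of the 37 genes replicate 3 was the highest ProsB5 RNAi library. The count of 28 fell to 11 without ProsB5 RNAi replicate 1, and to 18 without replicate 2. Oxidative phosphorylation calls were 0 higher and 11 lower against each control separately, 0 and 13 without the ninaE libraries and 0 and 5 without the Acp36DE libraries. The 13 genes of the mitochondrial genome are listed at 0 in the files and were not tested.

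Glycolysis and glycogen genes were lower in 9 of 20 and higher in 0. Glycolysis calls were 0 higher and 5 lower with only the compared libraries, 0 and 3 against each control separately and 0 and 3 without the Acp36DE libraries. Ald, the aldolase gene, stood at 5349, 6091 and 6286 CPM in ProsB5 RNAi, against 8669.8, 8953 and 11464 CPM in GFP RNAi and 7872, 7388 and 7557 CPM in white RNAi (log2 -0.54 ± 0.08, adjusted p = 0.000379), one of the 8 largest falls in CPM. Hex-A, a hexokinase gene, stood at 497, 524 and 556 CPM in ProsB5 RNAi, against 767, 788 and 901 CPM in GFP RNAi and 695, 699.7 and 700.4 CPM in white RNAi (log2 -0.52 ± 0.05, adjusted p = 2.7e-05). Glycogenin and CG6904, the glycogen synthase gene Glys, were lower too (log2 -0.42 ± 0.07 and log2 -0.48 ± 0.10). The groups overlapped in none of these 4. The tricarboxylic acid cycle was lower in 7 of 14 genes and higher in 1, but in 3 and 0 without ProsB5 RNAi replicate 1. Cycle calls were 1 higher and 4 lower with only the compared libraries, 1 and 2 against each control separately and 0 and 2 without the Acp36DE libraries. Nc73EF, a subunit of the 2-oxoglutarate dehydrogenase, stood at 3217 to 4158 CPM in ProsB5 RNAi, against 5044 to 6837 CPM in the controls (log2 -0.56 ± 0.08, adjusted p = 0.000281), and the aconitase gene Acon at 3639 to 4538 CPM in ProsB5 RNAi, against 5206 to 7297 CPM in the controls (log2 -0.50 ± 0.08, adjusted p = 0.000552). Of 14 genes of mitochondrial quality control 2 were higher and 5 lower. Quality control calls were 1 higher and 3 lower against each control separately and 0 and 3 without the Acp36DE libraries. TFAM, which packages mitochondrial DNA, stood at 55.9, 56.6 and 59 CPM in ProsB5 RNAi, against 80.9, 78.6 and 81.8 CPM in GFP RNAi and 74.2, 71.5 and 71.7 CPM in white RNAi (log2 -0.42 ± 0.05, adjusted p = 3.82e-05). Pink1 and the fusion gene Marf were lower (log2 -0.23 ± 0.05 and log2 -0.24 ± 0.05).

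Immune genes were higher in part. Of 23 antimicrobial peptide genes 10 were called higher and 1 lower, and 7 and 0 without ProsB5 RNAi replicate 1. Their sum, 2517 to 2735 CPM in ProsB5 RNAi, lay within the 2181 to 3271 CPM of the controls. Their median log2 fold change was 1.33 against GFP RNAi alone and 0.095 against white RNAi alone. Peptide calls were 4 higher and 0 lower against each control separately and 4 and 0 without the Acp36DE libraries. Dpt, the diptericin gene of the Imd pathway, stood at 29.1, 12.9 and 14.8 CPM in ProsB5 RNAi, against 2.78, 2.93 and 2.24 CPM in GFP RNAi and 6.34, 5.61 and 9.56 CPM in white RNAi (log2 2.12 ± 0.25, adjusted p = 6.44e-05). Drs, the drosomycin gene of the Toll pathway, stood at 195, 119.9 and 108 CPM in ProsB5 RNAi, against 57.9, 57 and 53.5 CPM in GFP RNAi and 72.6, 80.2 and 81.7 CPM in white RNAi (log2 1.09 ± 0.16, adjusted p = 0.000274). AttC stood at 23 to 61.3 CPM in ProsB5 RNAi, against 4.1 to 19.1 CPM in the controls (log2 2.27 ± 0.38, adjusted p = 0.000684), a call lost without the Acp36DE libraries (adjusted p = 0.0589). Replicate 1 was the highest ProsB5 RNAi library in all 3, and white RNAi lay above GFP RNAi in all 3.

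Peptidoglycan recognition proteins, which sense or digest bacterial cell wall, were 7 higher and 0 lower of 12. PGRP-SC2, an amidase of the gut, stood at 70.2, 56.6 and 57.4 CPM in ProsB5 RNAi, against 24.5, 19.8 and 20.8 CPM in GFP RNAi and 15.7, 13.8 and 12.4 CPM in white RNAi (log2 1.82 ± 0.26, adjusted p = 0.000228). PGRP-SD, a sensor, stood at 59.9, 38.5 and 35.1 CPM in ProsB5 RNAi, against 14.1, 17.2 and 10.0 CPM in GFP RNAi and 13.9, 18.4 and 19 CPM in white RNAi (log2 1.53 ± 0.19, adjusted p = 9.41e-05). PGRP-SC1b had 665 reads in ProsB5 RNAi, against 5 in the controls, all 5 in GFP RNAi replicate 1, a ratio of 233 (99.5 to 721; adjusted p = 1.2e-05). In the Toll and Imd pathways 8 genes were higher and 1 lower of 17, 5 and 0 without ProsB5 RNAi replicate 1 and 4 and 1 without replicate 3. Toll and Imd calls were 2 higher and 0 lower against each control separately, 5 and 0 without the ninaE libraries and 3 and 0 without the Acp36DE libraries. The Imd inhibitor gene pirk stood at 61.4, 51.4 and 65.9 CPM in ProsB5 RNAi, against 20.1, 24.4 and 8.31 CPM in GFP RNAi and 19.9, 18.9 and 17.7 CPM in white RNAi (log2 1.71 ± 0.22, adjusted p = 0.000103), above every control. Cytokines, receptor and targets of JAK-STAT were higher in 3 of 14 and lower in 0, and higher in 1 without ProsB5 RNAi replicate 3. The 21.4% called lay below the 30.4% of all genes tested. JAK-STAT calls were 0 higher and 0 lower against each control separately and 1 and 0 without the Acp36DE libraries. TotX stood at 52.2 to 76.1 CPM in ProsB5 RNAi, against 16.9 to 50.1 CPM in the controls (log2 1.06 ± 0.12, adjusted p = 5.53e-05). JNK pathway and cell death genes were 2 higher and 3 lower of 21, and 2 and 1 without ProsB5 RNAi replicate 1. Here too the 23.8% called lay below the share of all genes. JNK and cell death calls were 2 higher and 1 lower with only the compared libraries, 1 and 1 against each control separately, 2 and 1 without the ninaE libraries and 1 and 1 without the Acp36DE libraries.

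Markers of cells other than muscle moved as well. Haemocyte markers were 11 higher and 2 lower of 14 tested, with a median log2 fold change of 0.44, and summed to 1313 to 1367 CPM in ProsB5 RNAi, against 931 to 1078 CPM in the controls. Haemocyte marker calls were 5 higher and 1 lower without the Acp36DE libraries. Hml, hemolectin, stood at 341, 354 and 338 CPM in ProsB5 RNAi, against 179, 179 and 195 CPM in GFP RNAi and 235, 226 and 229 CPM in white RNAi (log2 0.74 ± 0.08, adjusted p = 2.37e-05), with no overlap. Pxn and the scavenger receptor gene Sr-CI were higher (log2 0.49 ± 0.06 and log2 0.52 ± 0.09). The markers that were lower, proPO-A1 (log2 -0.47 ± 0.11, adjusted p = 0.00752) and PO45, belong to crystal cells, the blood cells that carry prophenoloxidase, and the PO45 call was lost without ProsB5 RNAi replicate 1. The list also holds lz, another gene of crystal cells, which was not called lower. The part of haemocyte number in the immune genes was not tested.

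Proteins that the fat body stores or secretes were 8 higher and 1 lower of 13, and their sum was 14815 to 18526 CPM in ProsB5 RNAi, against 9766 to 12793 CPM in the controls. Lsp2, a larval serum storage protein, stood at 3164, 1073 and 1387 CPM in ProsB5 RNAi, against 132, 115 and 45 CPM in GFP RNAi and 625, 811 and 583 CPM in white RNAi (log2 2.87 ± 0.33, adjusted p = 4.45e-05). Lsp1alpha stood at 311, 117 and 116 CPM in ProsB5 RNAi, against 12, 11.2 and 2.79 CPM in GFP RNAi and 34.6, 48.8 and 33.3 CPM in white RNAi (log2 3.30 ± 0.36, adjusted p = 3.8e-05). For both, GFP RNAi was lower than white RNAi, and both were below the knockdown. Rfabg, the apolipophorin precursor and the largest rise in CPM, stood at 9209.9 to 10158 CPM in ProsB5 RNAi, against 6449 to 7965 CPM in the controls (log2 0.41 ± 0.07, adjusted p = 0.000952). Yp1, a yolk protein gene typical of females, stood at 25.1, 3.77 and 4.67 CPM in ProsB5 RNAi, against 0.885, 0.831 and 0.31 CPM in GFP RNAi and 1.51, 2.36 and 1.09 CPM in white RNAi (log2 3.40 ± 0.62, adjusted p = 0.00132), and Yp2 was higher as well (log2 3.13 ± 0.53, adjusted p = 0.000803). Without ProsB5 RNAi replicate 1, the highest library in both, the log2 fold changes were 1.99 and 1.75. The fat body gene that was lower was v(2)k05816, also on the oenocyte list. Pepck, the gluconeogenic enzyme gene and one of the 8 largest rises in CPM, stood at 2832 to 3362 CPM in ProsB5 RNAi, against 1392 to 2808 CPM in the controls (log2 0.54 ± 0.12, adjusted p = 0.00562). The Pepck call was lost when a call against each control separately was required. Arc1, a gene of neurons and gut related to retroviral capsids and another of the 8, stood at 2349, 3825 and 2472 CPM in ProsB5 RNAi, against 744, 1446 and 542 CPM in GFP RNAi and 1258, 1984 and 2059.9 CPM in white RNAi (log2 1.18 ± 0.28, adjusted p = 0.00724), a call lost without ProsB5 RNAi replicate 2.

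Digestive enzyme genes were among the largest rises. Of 30 gut proteases and lysozymes 15 were higher and 6 lower (median 0.54), but their sum, set by a few abundant members, overlapped, at 6506 to 12551 CPM in ProsB5 RNAi, against 8929 to 11480.0 CPM in the controls. Gut calls were 10 higher and 2 lower without the Acp36DE libraries. Jon65Ai, a Jonah protease gene, had 2137 reads in ProsB5 RNAi, at 29.3, 16.3 and 16.4 CPM, against 11 reads in the 6 controls, all of them in GFP RNAi replicate 1 (ratio 341, 190 to 684; adjusted p = 2.29e-05). Jon99Fii stood at 66.5, 65.5 and 76 CPM in ProsB5 RNAi, against 7.65, 0.199 and 0.0345 CPM in GFP RNAi and 0.224, 0.166 and 0.033 CPM in white RNAi (adjusted p = 7.17e-05). mex1, a gut marker with reads in all libraries, stood at 52.8, 34.2 and 35.3 CPM in ProsB5 RNAi, against 14.7, 12.6 and 9.24 CPM in GFP RNAi and 17, 18.9 and 20.5 CPM in white RNAi (log2 1.43 ± 0.16, adjusted p = 3.9e-05). The lysozyme gene LysE was lower, at 9.53, 4.72 and 5.13 CPM in ProsB5 RNAi, against 84.4, 87.3 and 76.3 CPM in GFP RNAi and 32, 21.1 and 22.1 CPM in white RNAi (log2 -2.82 ± 0.35, adjusted p = 8.54e-05), as was LysB (log2 -1.32 ± 0.24, adjusted p = 0.00112), although reads of near-identical lysozyme genes are hard to assign. What share of these values the amount of gut in each sample accounts for was not tested.

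Among the 12 largest rises, ProsB5 RNAi replicate 1 was the highest knockdown library in 10 and GFP RNAi replicate 1 the highest control in 9, and the other 5 controls lay under 1 CPM in all 12. CG9468, an alpha-mannosidase gene now LManVI, stood at 729.5, 211 and 309 CPM in ProsB5 RNAi, against 64, 0.166 and 0.0345 CPM in GFP RNAi and 0.032, 0 and 0.033 CPM in white RNAi (adjusted p = 0.000741). Its relative CG9463, now LManIII, stood at 279, 64.1 and 72.4 CPM in ProsB5 RNAi, against 16.5, 0.0665 and 0.0345 CPM in GFP RNAi and 0, 0 and 0.033 CPM in white RNAi (adjusted p = 0.000321). In both, GFP RNAi replicate 1 stood far above the other controls and below all knockdown libraries. CG6277 stood at 237, 106 and 69.3 CPM in ProsB5 RNAi, against 10.1, 0.0332 and 0.0345 CPM in GFP RNAi and 0, 0 and 0 CPM in white RNAi (adjusted p = 0.00108). The neighbouring CG6271 had 645 reads, against 9 in GFP RNAi replicate 1 and none in the other 5 controls, a ratio of 126 (65.8 to 276; adjusted p = 5.33e-05). CG8628, an acyl-CoA binding protein gene now Acbp3, had 3919 reads, against 24 (ratio 287, 192 to 448; adjusted p = 2.04e-05), and CG5767 stood at 17.3 to 59.2 CPM in ProsB5 RNAi, against 0 to 3.00 CPM in the controls (adjusted p = 0.000741).

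The serine protease genes CG17475, CG31265, CG31266 and CG31267 lie close together, and all were among the 12. CG17475 had 699, 676 and 277 reads in ProsB5 RNAi, against 1 in all 6 controls (ratio 2900, 520 to 115000; adjusted p = 0.00236). CG31265 had 578 reads against 2 (ratio 507, 140 to 4200; adjusted p = 1.36e-05), CG31266 had 728 against 4 (319, 124 to 1180; adjusted p = 0.000163) and CG31267 had 729 against 2 (640, 176 to 5290; adjusted p = 0.00194). Without the Acp36DE libraries the calls of CG17475 and CG31267 were lost (adjusted p = 0.0801 and 0.0658). Such ratios cover counting error only, and the intervals are wide because the controls had so few reads.

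Genes near 0 in the knockdown were the counterpart. Cpr49Ab, a cuticle protein gene, stood at 0.355, 0.279 and 0.0583 CPM in ProsB5 RNAi, against 37.5, 27.4 and 27.4 CPM in GFP RNAi and 39.9, 34.3 and 22.5 CPM in white RNAi. It had 24 reads in ProsB5 RNAi, against 5766 in the controls, 137 times fewer after scaling for library size (91.9 to 214, adjusted p = 6.05e-08). Its neighbour CG13155 had 3 reads, 1 in each library, against 1245 (237 times fewer, 80.7 to 1150; adjusted p = 5.8e-06). In the fit's other knockdowns these genes were also low, with Cpr49Ab at 0.271 CPM in ProsB1 RNAi and 0.253 CPM in Ter94 RNAi, and CG13155 at 0.0281 and 0.0518 CPM. The neighbours were thus near 0 in every knockdown of the fit. CG31832 stood at 0.178, 0.279 and 0.233 CPM in ProsB5 RNAi, against 32.3, 25 and 18.1 CPM in GFP RNAi and 4.2, 5.12 and 2.9 CPM in white RNAi (adjusted p = 7.93e-07), with white RNAi between the knockdown and GFP RNAi. The C-type lectin gene Lectin-galC1 stood at 11.7, 11.4 and 5.31 CPM in ProsB5 RNAi, against 74.1, 59.8 and 58.7 CPM in GFP RNAi and 87.1, 92.9 and 65.1 CPM in white RNAi (log2 -2.93 ± 0.26, adjusted p = 1.03e-05). CG13618, now Jhbp12, stood at 2.96, 3.6 and 3.73 CPM in ProsB5 RNAi, against 18.1, 19.6 and 18.6 CPM in GFP RNAi and 35.4, 33.6 and 29.7 CPM in white RNAi (log2 -2.86 ± 0.20, adjusted p = 2.07e-06). CG6432, an acyl-CoA synthetase gene on the oenocyte list, stood at 5.74 to 12.1 CPM in ProsB5 RNAi, against 53.3 to 83.5 CPM in the controls (log2 -2.91 ± 0.26, adjusted p = 1.2e-05). Of 34 cuticle protein genes 3 were higher and 8 lower, so that 32.4% were called, near the 30.4% of all genes tested. Cuticle calls were 1 higher and 5 lower against each control separately, 3 and 4 without the ninaE libraries and 0 and 5 without the Acp36DE libraries. Lower genes included Cpr67B at 43.1 to 52.3 CPM in ProsB5 RNAi, against 83.7 to 128 CPM in the controls (log2 -1.05 ± 0.07, adjusted p = 1.52e-06) and Cpr51A (log2 -1.23 ± 0.17, adjusted p = 0.000174).

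CG1561 and the photoreceptor gene chp completed the 12 largest falls, and both were high in the control libraries high in ninaE. CG1561 stood at 0.118, 0.112 and 0.175 CPM in ProsB5 RNAi, against 0.98, 8.38 and 16.9 CPM in GFP RNAi and 13.3, 0.797 and 0.494 CPM in white RNAi (adjusted p = 0.00749). chp stood at 0.473, 0.251 and 0.233 CPM in ProsB5 RNAi, against 0.632, 14 and 35.1 CPM in GFP RNAi and 32.1, 0.831 and 1.48 CPM in white RNAi (adjusted p = 0.0189). In chp the lowest control, GFP RNAi replicate 1 at 0.632 CPM, lay just above the highest knockdown library, and the call was lost without ProsB5 RNAi replicate 1, 2 or 3. Of 20 photoreceptor markers 17 were called lower and 1 higher. Without white RNAi replicate 1 there were 8 lower, without ProsB5 RNAi replicate 1, 2 or 3 there were 2, 3 and 3. Photoreceptor marker calls were 1 higher and 3 lower with only the compared libraries, 0 and 8 against each control separately and 0 and 1 without the ninaE libraries. rdgA, a diacylglycerol kinase gene, was of another kind, with controls close to each other (176 to 195 CPM in ProsB5 RNAi, against 233 to 257 CPM in the controls; log2 -0.38 ± 0.05, adjusted p = 0.000176). The gene that was higher, ninaD, which encodes a receptor for carotenoid uptake, stood at 41.9 to 59.9 CPM in ProsB5 RNAi, against 6.06 to 33.7 CPM in the controls (log2 2.29 ± 0.51, adjusted p = 0.00476), a call lost without the ninaE libraries (adjusted p = 0.0542) and against GFP or white RNAi taken separately (adjusted p = 0.0647).

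Markers of further organs gave few calls by edgeR's quasi-likelihood test. Of 33 male accessory gland markers 0 were called, beside 1 at an unadjusted p under 0.05 and 1 lower by DESeq2, by the replicate block or with the Ter94 RNAi libraries averaged, and their sums ran from 1.87 to 430 CPM in ProsB5 RNAi and from 2.08 to 292 CPM in the controls. Of 11 neuronal markers 0 were called, beside 1 at an unadjusted p under 0.05 and 1 lower by DESeq2, with sums of 2094 to 2284 CPM in ProsB5 RNAi, against 1976 to 2550.0 CPM in the controls. Without GFP RNAi replicate 1 or without ProsB5 RNAi replicate 1 there was 1 neuronal marker lower, as without the Acp36DE libraries. Testis markers were 1 higher of 12, the mitofusin gene fzo, whose groups overlapped, and 0 without ProsB5 RNAi replicate 2, against each control separately or without the ninaE or Acp36DE libraries.

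**Figure D4:**
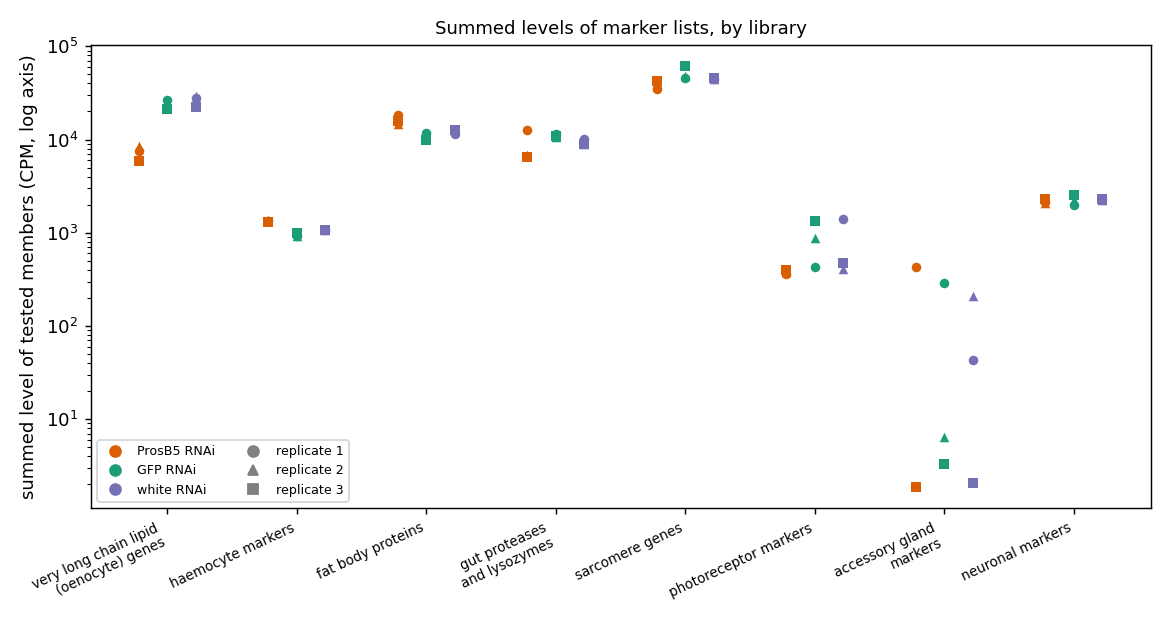
Summed levels (CPM, log axis) of the tested members of 8 marker lists in each library, with ProsB5 RNAi leftmost in each list and symbols for replicates. The oenocyte sum lies at 5899 to 8524 CPM in ProsB5 RNAi, against 21057 to 29413 CPM in the controls, while the photoreceptor and accessory gland sums differ within groups.

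The remaining lists had calls in a single direction or in both. Odorant binding proteins, which carry small hydrophobic molecules, were higher in 12 of 27 and lower in 0, in 6 without ProsB5 RNAi replicate 1 and in 7 without replicate 3. Binding protein calls were 5 higher and 0 lower against each control separately and 6 and 0 without the Acp36DE libraries. Obp56d stood at 645, 586 and 755 CPM in ProsB5 RNAi, against 253, 391 and 189 CPM in GFP RNAi and 278, 332 and 294 CPM in white RNAi (log2 1.20 ± 0.20, adjusted p = 0.000651) and Obp99b at 274 to 524 CPM in ProsB5 RNAi, against 104 to 229 CPM in the controls (log2 1.35 ± 0.24, adjusted p = 0.000985). The vacuolar ATPase was 5 higher and 1 lower of 24, so that 25% were called, beside 30.4% of all genes tested. ATPase calls were 9 higher and 2 lower by DESeq2, 3 and 0 against each control separately, 3 and 0 without the ninaE libraries and 2 and 0 without the Acp36DE libraries. Vha100-5, 1 of the forms of the largest membrane subunit, stood at 112, 107 and 76.7 CPM in ProsB5 RNAi, against 33.5, 32 and 20.2 CPM in GFP RNAi and 21.8, 22.4 and 24.5 CPM in white RNAi (log2 1.95 ± 0.16, adjusted p = 5.65e-06), and Vha100-4 at 14.7 to 34.3 CPM in ProsB5 RNAi, against 0.032 to 3.86 CPM in the controls (log2 5.88 ± 0.84, adjusted p = 0.000227). Autophagy and lysosome genes were 5 higher and 6 lower of 22. Autophagy and lysosome calls were 3 higher and 1 lower against each control separately, 3 and 1 without the ninaE libraries and 2 and 1 without the Acp36DE libraries. Lerp, the receptor that sorts lysosomal enzymes, stood at 141 to 157 CPM in ProsB5 RNAi, against 76.9 to 120.3 CPM in the controls (log2 0.64 ± 0.06, adjusted p = 8.69e-06), while Atg8a, which coats autophagosomes, was lower (log2 -0.25 ± 0.05, adjusted p = 0.00201).

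Secreted growth factors and myokines were 4 higher and 5 lower of 24. Growth factor calls were 1 higher and 4 lower without the Acp36DE libraries. The activin-like ligand gene daw stood at 46.8 to 66.1 CPM in ProsB5 RNAi, against 70.2 to 126 CPM in the controls (log2 -0.68 ± 0.16, adjusted p = 0.00677), and the myostatin-like gene myo at 165 to 178 CPM in ProsB5 RNAi, against 188 to 218 CPM in the controls (log2 -0.28 ± 0.05, adjusted p = 0.000916). Clock genes were 4 lower and 0 higher of 8. Clock calls were 0 higher and 2 lower against each control separately. vri stood at 167, 193 and 225 CPM in ProsB5 RNAi, against 288, 323 and 233 CPM in GFP RNAi and 309.5, 310.1 and 283 CPM in white RNAi (log2 -0.57 ± 0.10, adjusted p = 0.000913), below all controls. tim stood at 118, 110.0 and 125 CPM in ProsB5 RNAi, against 109, 122 and 125 CPM in GFP RNAi and 238, 268 and 254 CPM in white RNAi (log2 -0.56 ± 0.06, adjusted p = 4.34e-05), overlapping GFP RNAi, and its call was lost without ProsB5 RNAi replicate 2 or GFP RNAi replicate 3. The sources used here do not give the hour of collection. Iron genes were 2 higher and 2 lower of 9. Iron calls were 0 higher and 2 lower against each control separately. They included Irp-1B, an iron regulatory protein, at 213 to 249 CPM in ProsB5 RNAi, against 289 to 367 CPM in the controls (log2 -0.58 ± 0.07, adjusted p = 7.24e-05) and the transferrin gene Tsf1, also on the fat body list, at 2805 to 3132 CPM in ProsB5 RNAi, against 1527 to 2752 CPM in the controls (log2 0.41 ± 0.09, adjusted p = 0.00453).

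**Figure D5:**
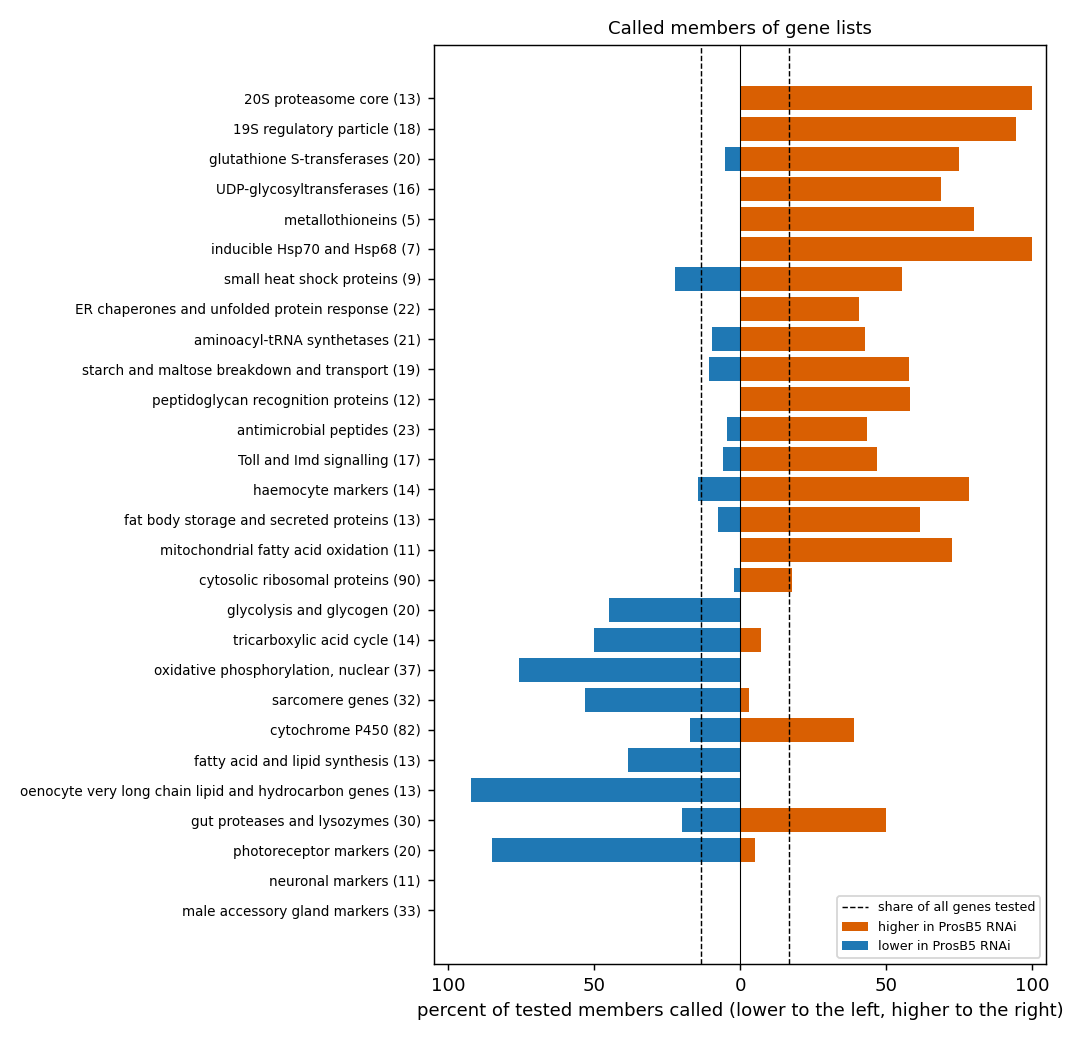
Percent of the tested members of 28 gene lists called higher (to the right) or lower (to the left) in ProsB5 RNAi, with the number of tested members in brackets. Dashed lines give the shares over all genes tested, 16.9% higher and 13.4% lower. The 20S core, the 19S particle and the Hsp70 genes have the highest shares to the right, and the oenocyte, photoreceptor and oxidative phosphorylation genes to the left.

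The knockdown of Prosbeta1, another catalytic core subunit, was the group most like ProsB5 RNAi in its target. Set directly against ProsB1 RNAi, with no control library in the contrast, ProsB5 RNAi differed in 672 of 11262 genes (5.97%), higher in 384 (3.41%) and lower in 288 (2.56%). The count was 1023 by DESeq2 and 327 with the 6 libraries fitted alone. It was 417 without ProsB5 RNAi replicate 2, and 374, 385 and 371 without ProsB1 RNAi replicate 1, 2 and 3 in turn. Each knockdown was low in its own target. Values are means ± SD of 3 libraries. Prosbeta5 averaged 69.3 ± 3.45 CPM in ProsB5 RNAi and 121 ± 5.95 CPM in ProsB1 RNAi, a difference of log2 -0.80 ± 0.07, adjusted p = 6.24e-05, and Prosbeta1 averaged 119.8 ± 22.1 CPM in ProsB5 RNAi and 42.7 ± 2.9 CPM in ProsB1 RNAi, a difference of log2 1.49 ± 0.13, adjusted p = 6.24e-05. All 13 other 20S genes tested, among them Prosbeta1 as the target of the ProsB1 RNAi, and all 18 of the 19S genes were higher in ProsB5 RNAi, by median log2 differences of 0.84 and 0.66, beside 0.0102 over all genes. They were joined by Rpt6R (6.86 ± 3.67 CPM in ProsB5 RNAi and 0.358 ± 0.203 CPM in ProsB1 RNAi; log2 4.26 ± 0.55, adjusted p = 0.000902) and Rpt3R (log2 4.15 ± 0.60, adjusted p = 0.00187).

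Stress genes split in this comparison. Hsp23 averaged 107 ± 80.2 CPM in ProsB5 RNAi and 11.3 ± 2.39 CPM in ProsB1 RNAi (log2 3.25 ± 0.55, adjusted p = 0.00429), and GstD2 averaged 10.1 ± 4.83 CPM in ProsB5 RNAi and 1.89 ± 0.454 CPM in ProsB1 RNAi (log2 2.41 ± 0.33, adjusted p = 0.00139). MtnB, MtnD and the Hsp70 gene Hsp70Bb were not called between the knockdowns, with differences of log2 -0.75 ± 0.57, adjusted p = 0.545, log2 -0.18 ± 0.34, adjusted p = 0.868 and log2 1.04 ± 0.69, adjusted p = 0.468. Mal-B1 averaged 952 ± 66.8 CPM in ProsB5 RNAi and 475 ± 43.7 CPM in ProsB1 RNAi (log2 1.00 ± 0.12, adjusted p = 0.000694). Amyrel, at 22.7 ± 12.4 CPM in ProsB5 RNAi and 16.9 ± 9.3 CPM in ProsB1 RNAi, and Mal-A3, at 116 ± 40.0 CPM in ProsB5 RNAi and 143 ± 78.9 CPM in ProsB1 RNAi, were not called (log2 0.43 ± 0.44, adjusted p = 0.692, and log2 -0.30 ± 0.66, adjusted p = 0.888). Cyp4g1 averaged 2871 ± 1239 CPM in ProsB5 RNAi and 2793 ± 890.4 CPM in ProsB1 RNAi and differed by log2 0.04 ± 0.29, adjusted p = 0.975, with the summed oenocyte genes at 5899 to 8524 CPM in ProsB5 RNAi and 5950 to 7860 CPM in ProsB1 RNAi. Akh averaged 4.74 ± 2.6 CPM in ProsB5 RNAi and 7.03 ± 3.9 CPM in ProsB1 RNAi (log2 -0.57 ± 0.36, adjusted p = 0.436). TpnC4 averaged 369 ± 30.7 CPM in ProsB5 RNAi and 663 ± 73.3 CPM in ProsB1 RNAi and was lower in ProsB5 RNAi (log2 -0.84 ± 0.11, adjusted p = 0.000782), while fln was not called (179 ± 27.8 CPM in ProsB5 RNAi and 154 ± 15.5 CPM in ProsB1 RNAi; log2 0.22 ± 0.14, adjusted p = 0.444). A difference that was not called does not show equal levels.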

How the data were processed

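The authors deposited read counts per gene for each library. Per the submitters' processing notes reads were aligned with STAR to build BDGP5, and per the labels libraries came from a stranded mRNA kit. The sources used here do not name the counting tool, annotation or strand setting. Rows for unassigned reads were left out. They made up 22.9 to 23.8% of each ProsB5 RNAi library and 25.4 to 31.2% of each control library, without overlap. Counts of 15 thorax libraries (ProsB5, ProsB1, Ter94, GFP and white RNAi, 3 each) entered 1 fit in edgeR 4.0.16 (R 4.3.3, limma 3.58.1), with TMM scaling, a filter on low counts (minimum 10, minimum total 15), group means and the two-sided quasi-likelihood F test. SEs were derived from each log2 fold change and its F value. Where the controls were near 0, ratios of CPM are given with exact 95% binomial intervals, which cover counting error only. DESeq2 1.42.0 was an alternative. On simulated counts with known changes (11089 genes) the fit recovered 66.7% of 1.5-fold, 81.8% of 2-fold and 87.3% of 4-fold changes, and 10 of its 163 calls were false. The simulation drew each gene independently around a mean shared by all groups, apart from the planted changes. It held no differences in RNA of other organs, so these shares need not hold for the real libraries.

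The members and the 51 gene lists, 1069 of whose genes were tested, were chosen with earlier results of these data known. Genes named were Prosbeta5, the 12 largest rises and falls (at least 5 CPM in a group, no overlap), the 8 largest in CPM each way, up to 4 called members of each list and any member of a list of at most 20. Named after their values were seen were Act88F, Cyp4s3, Cyp9b2, Cyt-c-p, GstD3, GstS1, Jon99Fii, LysB, LysE, Mhc, Mlc-c, Prm, Zasp52, Zasp66 and daw, with the overlapping genes Lsm10 and gprs. Newer gene names, neighbours and overlaps come from reference annotations of a later build, so no coordinates are given. Only some overlaps are given above. Of 1258 named or listed genes placed there, 367 overlapped another gene, 78 on the same strand. An opposite-strand gene covered 100% of the exons of CG3560, 84.6% of Lsp2, 63.9% of Aats-asp, 61.6% of fln and 54.3% of Yp1. A same-strand gene covered 73.5% of crc. Deviations of ProsB5 RNAi libraries from their group mean correlated with those of the same-numbered GFP RNAi libraries (r = 0.649, 0.366 and 0.467 for replicates 1, 2 and 3).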

Additional observations from a re-analysis of the deposited data

Results flagged for a closer look

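In 40 genes the ProsB5 and ProsB1 knockdowns were called in opposite directions against the shared controls while the direct difference between them was also called, 26 of them higher in ProsB5 RNAi and 14 lower. Values are means ± SD. The control libraries are the same in both, and the direct difference follows from the same fit and the same knockdown libraries. These calls are therefore not separate measurements. Of these genes 12 are on a list and meet the naming rule, of which 8 encode 20S subunits and 0 encode 19S subunits. The log2 differences of ProsB5 minus ProsB1 RNAi were 0.85 for CG17331 (Prosbeta4), 0.89 for Pros26, 0.87 for Pros28.1, 0.85 for Pros35, 0.81 for Prosalpha5, 0.68 for Prosbeta2 and 0.97 for Prosbeta7. Pros35 averaged 101 ± 13.8 CPM in ProsB5 RNAi and 56 ± 1.02 CPM in ProsB1 RNAi, against 74.7 ± 8.24 CPM in the controls. Prosbeta2 averaged 128 ± 22.3 CPM in ProsB5 RNAi and 79.6 ± 1.37 CPM in ProsB1 RNAi, against 104 ± 7.04 CPM in the controls. Prosbeta1, at 1.49, was the target of the ProsB1 RNAi.

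Around the core, Pomp, an assembly factor of the 20S particle, differed by 0.51, the deubiquitinase gene Uch-L3 by 0.53 and the p97 cofactor gene p47 by 0.64. Lon, a protease of the mitochondrial matrix, differed by -0.27 and was the 1 of the 12 that was lower in ProsB5 RNAi, at 115 ± 7.4 CPM in ProsB5 RNAi and 138 ± 1.94 CPM in ProsB1 RNAi. Against the controls, the calls of CG17331, Pros26, Prosbeta2, p47, Lon and Pomp were lost without ProsB5 RNAi replicate 2. Those of Prosbeta2 and p47 were also lost without GFP RNAi replicate 3 or white RNAi replicate 3, that of Lon without ProsB5 RNAi replicate 1, and that of Pomp without any of the other compared libraries but white RNAi replicate 2.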

How the results depend on the processing

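Against the mean of the controls 3419 genes were called. The count was 3479 with DESeq2, 3384 with RLE scaling, 3177 with no filter on low counts, 2985 with only the compared libraries and 3217 with the similar Ter94 RNAi libraries averaged. It was 639 with a change of 2-fold or more also required, 1735 against each control separately, 2226 without the 3 control libraries highest in ninaE and 1682 without the 4 libraries highest in Acp36DE. Leaving out 1 library gave 2441 to 3399. Against GFP RNAi alone (3501) that fold, and leaving out the ninaE and the Acp36DE libraries, gave 742, 1411 and 2255, and single libraries 2757 to 3253. Against white RNAi alone (2670) the fold and leaving out the Acp36DE libraries gave 563 and 529, and single libraries 1831 to 2588. Against ProsB1 RNAi (672) DESeq2 gave 1023, the 6 libraries alone 327, the fold 62 and leaving out the Acp36DE libraries 300, and single libraries 371 to 613. The ninaE, Acp36DE and Ter94 settings were chosen after seeing the data. Fewer libraries entered the first 2, and no other cause was tested. Of the 174 called genes among those named 0 changed sign under the 18 settings run for them, while Hsp83, MtnA and gprs, which were not called, changed sign in some. The setting against each control separately reused the main log2 fold change, so no sign could change there. Calls were lost in 0 with RLE scaling or the replicate block and in up to 24 without the Acp36DE libraries. The log2 fold change of Prosbeta5 kept its direction and call, from -1.10 to -0.94.

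With the replicate number as a block the counts were 3579, 3643, 2905 and 724 and Prosbeta5 was at -1.05. The correlations of same-numbered libraries were 0.0956, -0.445 and 0.532 with white RNAi and 0.325, 0.24 and -0.0178 with ProsB1 RNAi. Only with GFP RNAi was every one positive. Whether the replicate numbers pair the samples was not tested. Of 918 counts of list calls under the alternatives 119 moved by more than 1.5 times, 15 of them without the ninaE libraries and 30 without the Acp36DE libraries. Depth limits the genes whose controls had few reads, for which ratios with counting intervals are given.

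Named genes whose call against the mean of the controls was lost without the ninaE libraries were CG17331, Hsp70Bb, Lon, Mlc-c, PO45, Pomp, Pros26, Prosbeta2, Prosbeta7, Zasp66, chp, crc, eloF, fzo, ninaD, p47, pit, tim and tobi. Without the Acp36DE libraries they were ATPsyn-beta, Arc1, AttC, CG17475, CG31267, CG4461, CG6904, Hsc70-1, Lon, Mf, Mlc-c, MtnC, PO45, Pink1, Pomp, Tsf1, Zasp52, Zasp66, crc, fzo, maf-S, pit, tobi and vri, while Act88F was called. With only the compared libraries they were ATPsyn-beta, Lon, Mf, Prosbeta2 and chp. Against each control separately 23 calls were lost, those of ATPsyn-beta, Arc1, CG3011, CG6904, GstS1, Hsc70-1, Lon, Mf, Mlc-c, Pepck, Pink1 and Pomp among them. The others were Prosbeta2, TotX, Tsf1, crc, foxo, fzo, ninaD, p47, pit, tim and tobi. DESeq2 called Rpn6 (adjusted p = 0.0441).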

Other observations

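A few genes on no list differed in both comparisons by large amounts, and were chosen after their values were seen. Cht3, a chitinase gene now named Cht10, stood at 20.1, 24.4 and 31.6 CPM in ProsB5 RNAi, against 4.81, 3.92 and 4.76 CPM in GFP RNAi and 1.89, 2.66 and 2.37 CPM in white RNAi (log2 2.98 ± 0.14, adjusted p = 6.05e-08). It averaged 25.4 ± 5.81 CPM in ProsB5 RNAi and 1.62 ± 0.104 CPM in ProsB1 RNAi (log2 3.96 ± 0.18, adjusted p = 3.43e-07). The knockdown libraries of Cht3 lay above all others. borr, which encodes a subunit of the chromosomal passenger complex of cell division, stood at 1.57, 3.93 and 1.6 CPM in ProsB5 RNAi, against 0.569, 0.532 and 0.345 CPM in GFP RNAi and 0.352, 0.332 and 0.165 CPM in white RNAi (log2 2.67 ± 0.30, adjusted p = 4.49e-05). It averaged 2.37 ± 1.36 CPM in ProsB5 RNAi and 0.125 ± 0.0389 CPM in ProsB1 RNAi (log2 4.19 ± 0.43, adjusted p = 0.000205). All levels of borr were low, and replicate 2 was the highest ProsB5 RNAi library.

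CG32984 went the other way, at 4.32, 5.3 and 4.02 CPM in ProsB5 RNAi, against 22.7, 16.9 and 15.8 CPM in GFP RNAi and 10.2, 12.6 and 8.7 CPM in white RNAi (log2 -1.61 ± 0.15, adjusted p = 1.2e-05). It averaged 4.55 ± 0.669 CPM in ProsB5 RNAi and 33.1 ± 2.39 CPM in ProsB1 RNAi (log2 -2.86 ± 0.16, adjusted p = 2.02e-06). The ProsB5 RNAi libraries of CG32984 lay below every control and every ProsB1 RNAi library, and GFP RNAi lay above white RNAi.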
